A study of Homo sapiens with 6 samples.

Results

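The spliceosomal small nuclear RNAs (snRNAs) U1, U2, U4 and U5 were compared between cells expressing the DIS3L2 mutant D391N and control cells. Transcripts were selected on their gene symbol (RNU1-, RNU2-, RNU4-, or RNU5 followed by A, B, D, E or F) and on a mean of at least 1 RPKM (reads scaled to the length of the transcript and to the size of the library) over the 6 libraries. This choice by level found 118 members among 305 transcripts with such symbols at any level, in a table of 207167 transcripts. They were 52 U1, 38 U2, 11 U4 and 17 U5 transcripts. A symbol that ends in P marks a copy named as a pseudogene, and 107 members were such copies, while the other 11 are called genes here. The 11 genes were RNU1-1, RNU1-2, RNU1-3, RNU1-4, RNU4-1, RNU4-2, RNU5A-1, RNU5B-1, RNU5D-1, RNU5E-1 and RNU5F-1. All U2 members carried a copy's symbol, among them RNU2-2P, which is known to be transcribed. No transcript was matched to the symbol RNU2-1, so the U2 sums leave that gene out. Whether reads of RNU2-1 were assigned to the U2 members was not tested.

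The 6 libraries were made from rRNA-depleted total RNA of HEK293T-Rex cells, a human embryonic kidney line with the tetracycline repressor, which the labels name HEK293. Of these, 3 overexpressed the DIS3L2 D391N mutant, which binds uridylated RNA but lacks the activity of this 3′ to 5′ exoribonuclease, and 3 were empty control cells. The study's methods give doxycycline for induction of the construct, and whether the control cells received it is not given in the sources used here. Each condition was 1 cell line, the labels do not say whether the replicates were separate cultures, and p-values therefore measure only the spread between these libraries. An effect of the construct, of doxycycline and of the line cannot be told apart, nor can fewer RNA molecules in each cell and fewer cells that hold them. The deposited values carry no read counts, and the reads behind each value were approximated as the inverse of its posterior variance, which is also small where reads are divided among similar transcripts. The summed RPKM of all transcripts lay between 741119 and 1196017 in the D391N libraries and between 1205485 and 1285538 in the control libraries. DIS3L2 itself, summed over its transcripts, had 369.5, 467 and 512 RPKM with D391N (replicates 1 to 3) against 11.8, 12.9 and 14.6 RPKM without it, which includes reads from the construct and goes with the labels. VIM, KRT8, KRT18 and LIN28B, which this line is known to express, were all detected, at 15.8 RPKM or more in each library, while PTPRC, ALB, CD3E and HBB, markers of blood and liver cells, were at 7.12 RPKM or less.

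U1 pairs with the 5′ splice site of the intron and U2 with its branch point. U4 enters the spliceosome base-paired to U6 and leaves before catalysis, and U5 holds the exon ends together through a conserved loop. Each of these RNAs is transcribed by RNA polymerase II, cut at its 3′ end by the Integrator complex, exported, bound by a ring of Sm proteins in the cytoplasm, trimmed and returned to the nucleus. The human genome carries many copies of each snRNA, most of which are pseudogenes. DIS3L2 degrades RNAs with added 3′ uridines in the cytoplasm.

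Members of these families resemble each other so closely that the sequences decide which values can be read on their own. The sequences below are those of the annotated transcripts in GENCODE on GRCh37, 5′ to 3′ and written with T, and the positions are on the same build; the study's own build was hg38. RNU1-1 (chr1:16840617-16840780, - strand) shares one identical sequence of 164 nt with RNU1-2, RNU1-3, RNU1-4 and the copies RNU1-27P and RNU1-28P, and also with RNVU1-18, which is no member. The capitals mark the letters at positions 3 to 11 that pair with the 5′ splice site.
RNU1-1: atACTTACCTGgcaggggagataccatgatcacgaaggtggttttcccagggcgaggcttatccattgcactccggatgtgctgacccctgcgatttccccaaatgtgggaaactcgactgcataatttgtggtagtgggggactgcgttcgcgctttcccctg

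The most abundant U2 member by RPKM, RNU2-38P (chr1:144944672-144944750, + strand), is annotated as a transcript of 79 nt outside any gene of its strand. It begins like RNU2-2P (chr11:62609091-62609281, - strand), which is 191 nt long and overlaps an exon of WDR74. Both sequences are shown because the first 52 nt, in capitals, are the same, so that reads of that stretch fit both.
RNU2-2P: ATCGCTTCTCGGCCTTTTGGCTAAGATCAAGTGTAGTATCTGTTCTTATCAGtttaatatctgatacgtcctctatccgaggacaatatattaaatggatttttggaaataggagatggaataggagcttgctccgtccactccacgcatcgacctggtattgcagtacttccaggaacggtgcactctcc
RNU2-38P: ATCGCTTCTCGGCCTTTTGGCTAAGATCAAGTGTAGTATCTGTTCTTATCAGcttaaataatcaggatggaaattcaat

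The U4 genes RNU4-1 (chr12:120730900-120731040, - strand) and RNU4-2 (chr12:120729566-120729706, - strand) differ at 4 positions over 141 nt. Counted from the 5′ end, with the base of RNU4-1 first, the differences are C37T, G88A, C99A and C113T, and they are in capitals.
RNU4-1: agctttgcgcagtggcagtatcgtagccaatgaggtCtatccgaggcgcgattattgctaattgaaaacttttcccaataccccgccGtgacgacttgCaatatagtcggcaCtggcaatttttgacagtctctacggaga
RNU4-2: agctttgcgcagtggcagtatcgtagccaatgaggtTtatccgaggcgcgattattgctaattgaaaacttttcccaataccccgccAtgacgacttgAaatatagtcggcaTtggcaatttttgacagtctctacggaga

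Most members had lower values in the D391N libraries, by an uneven amount, and none passed the test. Of the 118 members, 106 had a log2 fold change below 0 (89.8%, against 54.2% of the 54671 tested transcripts), and 84 were more than 2-fold lower (71.2%, against 14.5%). The median log2 fold change over the members was -1.82, and it was -0.072 over all tested transcripts. The members' median lay between -2.41 (without D391N replicate 1) and -1.20 (without D391N replicate 2) when single libraries were left out. In limma with Benjamini-Hochberg adjustment over all tested transcripts, 0 members had an adjusted p under 0.05 (0.0604% of all tested transcripts did), and the smallest adjusted p was 0.090, for RNU1-44P. At an unadjusted p under 0.05 there were 56 members, where 17.6% of all tested transcripts passed. In 42 members all 3 D391N libraries were below all 3 controls (35.6%, against 15.6%), and in 2 each was above (against 10.1%).

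The libraries within the D391N condition were far apart. D391N replicate 2 was the lowest of the 6 libraries for 87 members and the lowest of the D391N libraries for 97. The median deviation of the members from their own 6-library mean was 0.50, -2.20 and -0.81 on the log2 scale in D391N replicates 1, 2 and 3, and 1.08, 0.71 and 1.15 in the control libraries. The value of D391N replicate 1 was closer to the controls than those of the other two. Without D391N replicate 1, limma called 49 members, all lower (41.5%, against 5.23% of all tested transcripts): 27 of U1, 13 of U2, 9 of U5 and none of U4. Without any other single library it called 0. What sets D391N replicate 1 apart was not tested.

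Other small RNAs also had low values in D391N replicates 2 and 3. The 265 tested snoRNAs, which guide chemical modification of other RNAs, had a median log2 fold change of -1.56 and median deviations of 0.78, -2.16 and -0.92 in D391N replicates 1, 2 and 3. The 10 RNVU1 genes, which are variants of U1, had a median of -1.82. RNVU1-18 among them shares its sequence with the 6 identical U1 members, so this group is not wholly separate from the members. The 1681 other transcripts under 200 nt, snoRNAs among them, had a median of -0.74, and the 50185 of 200 nt or more -0.056. snoRNAs and other short transcripts thus had their lowest medians in D391N replicates 2 and 3, as the members did, and the part of this in the members' result was not tested.

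**Figure D1:**
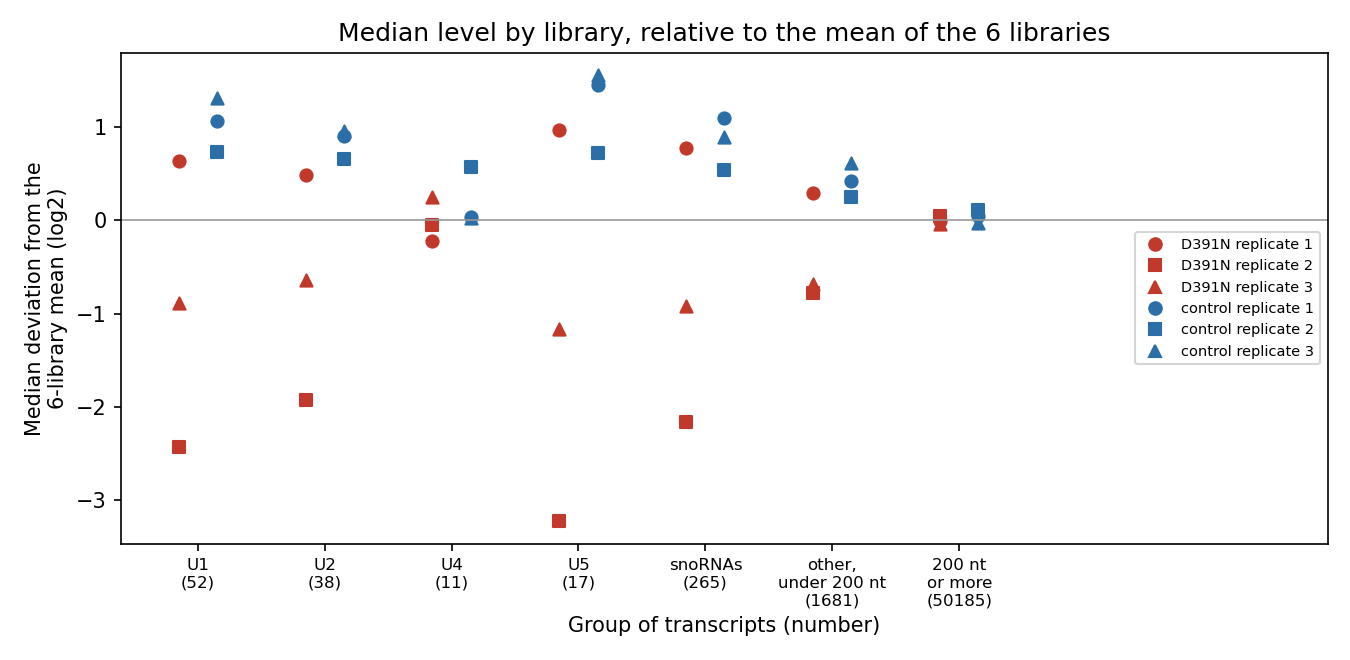
Median deviation of the log2 level from the 6-library mean (y axis, log2 units) for the members of each family, for snoRNAs, for other transcripts under 200 nt and for longer transcripts, with 1 point for each library. U1, U2 and U5 are spread between D391N replicate 2, lowest at -3.23 for U5, and the controls, as the snoRNAs are, while transcripts of 200 nt or more lie near 0 in each library.

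U1 had sums below all controls in each D391N library. The 52 U1 members summed to 4004, 328 and 3540 RPKM in D391N replicates 1, 2 and 3 and to 10759, 14121 and 14007 RPKM in control replicates 1, 2 and 3. The sum averaged 2624 ± 2002 RPKM with D391N and 12962 ± 1909 RPKM in controls (SD, n = 3 each), a log2 ratio of -2.30. The 6 identical members divide the same reads among themselves and with RNVU1-18, so their single values cannot be read. Their sum leaves out RNVU1-18 and so holds only a part of these reads. It was 3381, 250 and 3318 RPKM in D391N libraries and 9855, 13519 and 12981 RPKM in controls, with a log2 ratio of -2.39. The 6 members held between 76.4% and 95.7% of the U1 sum in each library. Their single values had an inverse variance like that of about 1 read, with a median between 0.67 and 1.55 by library. The other 46 U1 members summed to a log2 ratio of -1.46, with 623, 77.2 and 222 RPKM in D391N libraries and 904, 602 and 1026 RPKM in controls, where D391N replicate 1 lay above control replicate 2.

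The single U1 values are given for completeness, as divided by the authors' estimate. RNU1-1 had 477, 45.4 and 474 RPKM in D391N replicates 1, 2 and 3 and 1552, 1783 and 2187 RPKM in controls. The log2 fold change was -3.07 (standard error, SE, 0.91, adjusted p = 0.192 in limma). RNU1-2, RNU1-3 and RNU1-4 were at -2.93, -3.57 and -3.20 on the same scale (limma adjusted p = 0.246, 0.184 and 0.201). The copies RNU1-27P and RNU1-28P were at -2.73 and -2.87 (limma adjusted p = 0.248 and 0.245). Of these 6, RNU1-3 passed without D391N replicate 1 (limma adjusted p = 0.028), where 5.23% of all tested transcripts passed and were lower. Without D391N replicate 2 the log2 fold changes of the 6 lay between -2.37 (RNU1-3) and -1.45 (RNU1-27P). RNU1-139P, the next most abundant copy and 84.2% identical to RNU1-1 over its length, had 93.2, 0.66 and 9.75 RPKM in D391N libraries and 166, 80.5 and 154 RPKM in controls. Its log2 fold change was -3.84 (SE 1.57, adjusted p = 0.275 in limma), and the groups overlap, since D391N replicate 1 exceeded control replicate 2. It was -5.54 without D391N replicate 1 (limma adjusted p = 0.032) and -2.07 without D391N replicate 2.

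**Figure D2:**
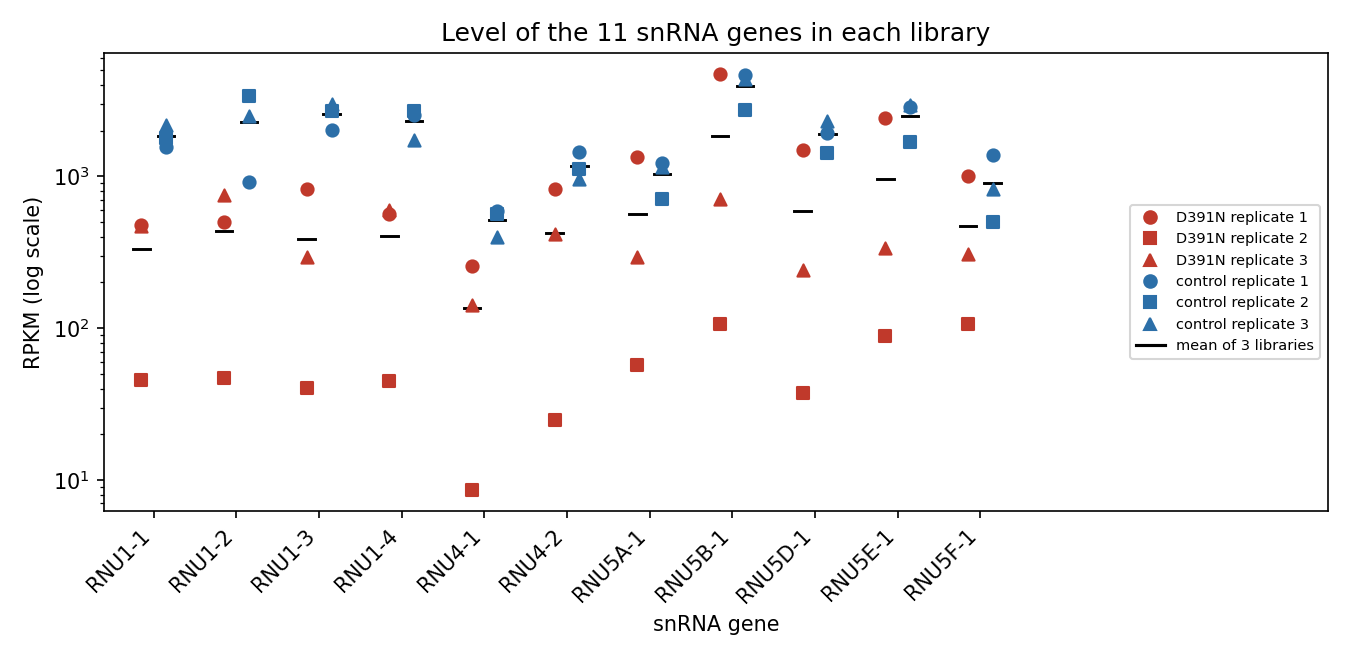
RPKM (log axis) of the 11 snRNA genes in each library, with D391N points in red, control points in blue and the mean of 3 libraries as a line. D391N replicate 2 is lowest for every gene, while for the U5 genes D391N replicate 1 overlaps the controls or exceeds them.

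The sum of the U2 members, which leaves out RNU2-1, was dominated by the short copy RNU2-38P. This copy was far lower in 1 control library than in the others. The 38 U2 members summed to 95975, 15423 and 127169 RPKM in D391N replicates 1, 2 and 3 and to 123529, 164866 and 25290 RPKM in controls, a log2 ratio of -0.39. It was -0.86 without control replicate 3, but 0.094 without D391N replicate 2, 0.096 without control replicate 2 and 0.22 with quantile normalization, so that its direction depends on the libraries and the scaling. The groups overlap, though the lowest sum was in D391N replicate 2 and the highest in control replicate 2. RNU2-38P had 84278, 12300 and 122779 RPKM in D391N libraries and 107898, 147680 and 1042 RPKM in control replicates 1, 2 and 3. It made up between 79.8% and 96.5% of the U2 sum in the other libraries and 4.12% in control replicate 3, and its estimated reads were 67198 and 116542 in the other controls and 35 there. Its log2 fold change was 0.98 (SE 2.01, adjusted p = 0.827 in limma), in the direction opposite to the ratio of its means, and it ranged from -1.33 without control replicate 3 to 2.25 without control replicate 2. The cause of the value in control replicate 3 was not tested.

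Without RNU2-38P, a choice made after its values were seen, the U2 sums of the conditions were apart, as those of U1 were. The other 37 members summed to 11697, 3123 and 4389 RPKM in D391N replicates 1, 2 and 3 and to 15630, 17186 and 24248 RPKM in controls. The log2 ratio was -1.57 and the groups did not overlap. RNU2-2P held most of this sum, with 10854, 2931 and 3839 RPKM in D391N libraries and 14190, 15851 and 22567 RPKM in controls. Its log2 fold change was -1.79 (SE 0.62, adjusted p = 0.227 in limma), and -2.36 without D391N replicate 1 (limma adjusted p = 0.028). RNU2-2P has at least 731.8 estimated reads in each library, so that counting error is small beside the spread between libraries. Reads of its first 52 nt also fit RNU2-38P, however, and their division is the authors' estimate. The values of RNU2-2P and the sum without RNU2-38P depend on that division. RNU2-61P, 87.4% identical to RNU2-2P over its length, had 143, 8.66 and 29.4 RPKM in D391N libraries and 368, 333 and 640 RPKM in controls. Its log2 fold change was -3.69 (SE 0.95, adjusted p = 0.161 in limma), and the conditions did not overlap. It was -4.74 without D391N replicate 1 (limma adjusted p = 0.012) and -2.72 without D391N replicate 2.

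**Figure D3:**
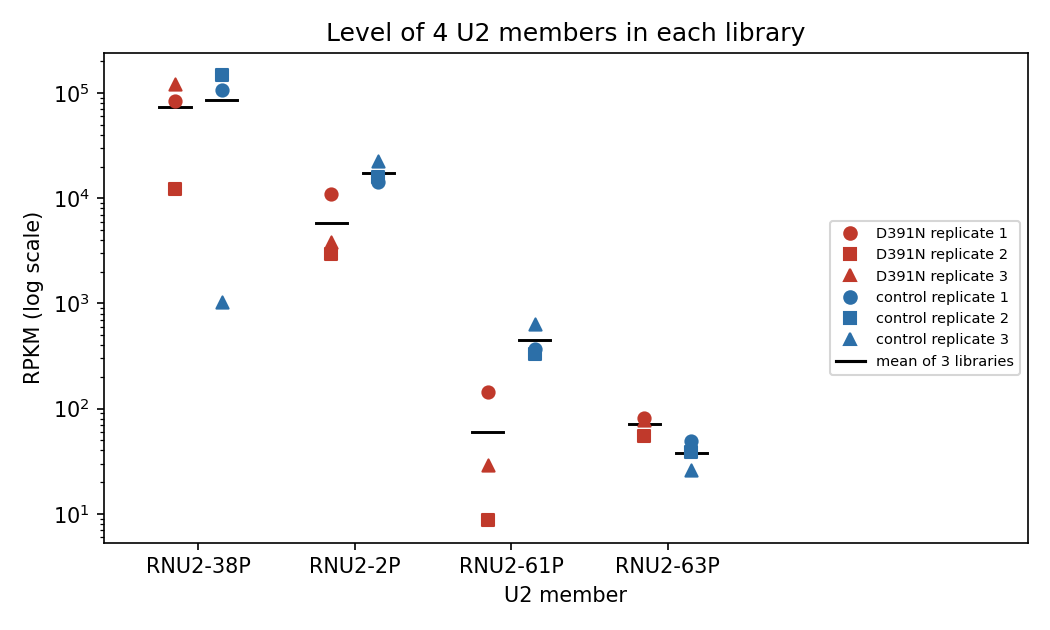
RPKM (log axis) of RNU2-38P, RNU2-2P, RNU2-61P and RNU2-63P in each library, D391N in red and control in blue, with the mean of 3 libraries as a line. RNU2-38P is at 1042 in control replicate 3, where RNU2-2P is at its highest, 22567, and RNU2-63P is higher in each D391N library.

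U4 had the lowest sums of the 4 families, and both of its genes were lower in all 3 D391N libraries than in any control. The 11 U4 members summed to 1094, 49.5 and 573 RPKM in D391N replicates 1, 2 and 3 and to 2050, 1700 and 1366 RPKM in controls, a log2 ratio of -1.57 without overlap of the groups. Leaving out D391N replicate 1 gave -2.45, and leaving out D391N replicate 2 gave -1.03. RNU4-2 had 829, 24.9 and 415 RPKM in D391N libraries and 1442, 1115 and 959 RPKM in controls, with a log2 fold change of -2.50 (SE 1.22, adjusted p = 0.334 in limma). RNU4-1 had 255, 8.54 and 142 RPKM against 595, 568 and 397 RPKM, with a log2 fold change of -2.91 (SE 1.19, adjusted p = 0.274 in limma). Without D391N replicate 2 the log2 fold changes of RNU4-2 and RNU4-1 were -0.98 and -1.43. RNU4-2 exceeded RNU4-1 in every library, by 2.91 to 3.25 times in D391N libraries and by 1.97 to 2.42 times in controls. The ratios of both genes do not overlap between the conditions, with no test. They rest on the 4 differing positions shown above, and the division of reads between both genes is the authors' estimate. The genes held 67.4% of the U4 sum in D391N replicate 2 and at least 97.1% in the other libraries.

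The 9 U4 copies are given apart from the genes. They summed to 10.8, 16.1 and 16.6 RPKM in D391N replicates 1, 2 and 3 and to 12.9, 16.99 and 9.76 RPKM in controls, overlapping fully, with a log2 ratio of 0.13. Of these copies, 5 had a log2 fold change above 0, and their median was 0.27. RNU4-40P, in an intron of PHF20, had 1.93, 4.46 and 2.59 RPKM in D391N libraries and 0.51, 1.70 and 2.60 RPKM in controls. RNU4-82P had 1.79, 1.59 and 2.46 RPKM against 4.41, 3.32 and 0.85 RPKM, and RNU4-24P had 0.69, 3.01 and 1.92 RPKM against 1.91, 2.42 and 2.20 RPKM. Their log2 fold changes were 1.03, -0.28 and -0.41 (limma adjusted p = 0.413, 0.837 and 0.707). Each value rests on few reads, with a median of 2.62 estimated reads over the U4 copies. Of the U4 copies, 8 lie inside a gene transcribed from the same strand, so that the copy and a precursor of that gene cannot be told apart where reads are unspliced.

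U5 had sums below all controls in D391N replicates 2 and 3 and a sum within the controls in replicate 1. The 17 U5 members summed to 13876, 485 and 2457 RPKM in D391N replicates 1, 2 and 3 and to 16109, 10122 and 18329 RPKM in controls. D391N replicate 1 lay between control replicates 1 and 2. The sum averaged 5606 ± 7230 RPKM with D391N and 14853 ± 4245 RPKM in controls (SD, n = 3 each), a log2 ratio of -1.41, and -3.34 without D391N replicate 1. RNU5B-1 was the most abundant gene, with 4742, 106 and 714 RPKM in D391N libraries and 4667, 2720 and 4412 RPKM in controls, and D391N replicate 1 was the highest of the 6. Its log2 fold change was -2.43 (SE 1.26, adjusted p = 0.358 in limma).

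The other U5 genes were likewise lowest in D391N replicate 2 and second lowest in D391N replicate 3. RNU5E-1 had 2440, 89.0 and 339 RPKM in D391N libraries and 2862, 1689 and 2957 RPKM in controls, and RNU5D-1 had 1503, 37.4 and 243 RPKM against 1944, 1429 and 2318 RPKM. RNU5A-1 had 1352, 57.0 and 295 RPKM in D391N libraries and 1235, 711 and 1160 RPKM in controls. RNU5F-1 had 1008, 106 and 309 RPKM in D391N libraries and 1389, 499 and 827 RPKM in controls. All 4 overlap between the conditions through D391N replicate 1, and the division of reads among these similar genes is again an estimate. Their log2 fold changes were -2.53, -2.96, -1.83 and -1.37 in the order given (limma adjusted p = 0.299, 0.277, 0.400 and 0.417). Without D391N replicate 1, RNU5B-1, RNU5D-1 and RNU5E-1 passed the threshold (limma adjusted p = 0.041, 0.029 and 0.023). In that setting 5.23% of all tested transcripts passed and were lower. Without D391N replicate 2 the log2 fold changes were -1.06 for RNU5B-1, -1.42 for RNU5E-1, -1.62 for RNU5D-1, -0.67 for RNU5A-1 and -0.57 for RNU5F-1, and none passed. RNU5F-1 took 21.8% of the U5 sum in D391N replicate 2 and between 4.51% and 12.6% in the other libraries.

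The U5 copies included abundant ones. RNU5E-6P had 795, 30.2 and 195 RPKM in D391N replicates 1, 2 and 3 and 1242, 1353 and 3660 RPKM in controls. RNU5E-6P had the groups apart, with a log2 fold change of -3.45 (SE 1.14, adjusted p = 0.215 in limma). RNU5E-4P, 88.3% identical to its closest gene over its length, had 932, 31.8 and 194 RPKM against 1285, 762 and 1189 RPKM (log2 fold change -2.55, limma adjusted p = 0.298). RNU5B-6P, 60.9% identical, had 613, 11.7 and 70.3 RPKM against 811, 477 and 1056 RPKM (log2 fold change -3.21, limma adjusted p = 0.274). In both of these D391N replicate 1 lay above control replicate 2. Without D391N replicate 1 all 3 copies passed (limma adjusted p = 0.033, 0.037 and 0.024 in the order given), where 5.23% of all tested transcripts passed and were lower. Without D391N replicate 2 none of the 3 copies did, with log2 fold changes of -2.22, -1.31 and -1.84. All 17 U5 members had a log2 fold change below 0, between -3.74 and -1.28.

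**Figure D4:**
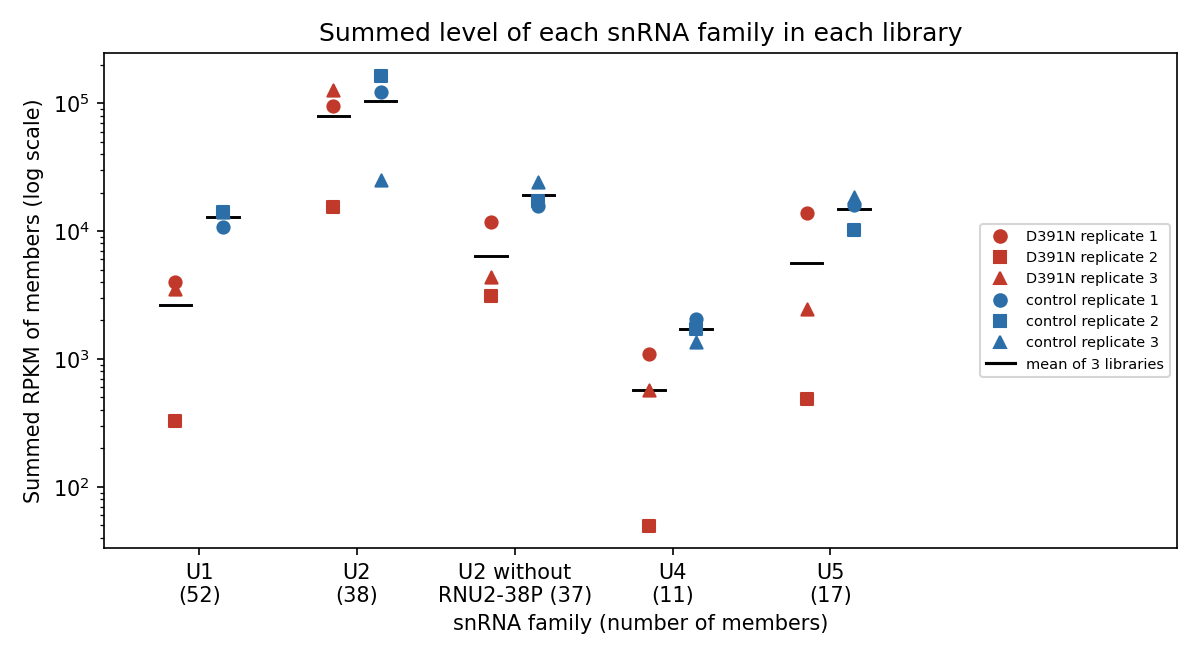
Summed RPKM (log axis) of the members of each family in each library, with D391N in red, control in blue and the mean of 3 libraries as a line. The D391N and control points are apart for U1, U4 and U2 without RNU2-38P, and overlap for U5 and for U2 with RNU2-38P.

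Genes and copies were set side by side. The 11 genes had a median log2 fold change of -2.91 and the 107 copies of -1.74. The log2 fold change was below 0 for all 11 genes and for 95 of the copies. In 6 genes and 36 copies each D391N library was below each control library (54.5% and 33.6%, against 15.6% of all tested transcripts). These counts hold the 6 identical U1 members, whose single values cannot be read. Without them the medians were -2.50 over 7 genes and -1.67 over 105 copies, and 2 genes and 34 copies were without overlap and lower. The difference of the medians, genes minus copies, was -1.18, and it was -0.25 without D391N replicate 2, so that it rests on that library. It was -0.73 for members of at least 5 RPKM and -0.89 with quantile normalization. The genes were also the more abundant: the median mean level was 1246 RPKM for genes and 6.22 RPKM for copies. By level, the median was -2.73 for the 23 members of at least 100 RPKM and -0.82 for the 35 under 3 RPKM. Adding 0.1 RPKM before taking logs shrinks the fold at low levels, and its part in this difference by level was not tested. The difference of genes and copies was -1.58 with 1 RPKM added and -1.11 with 0.01 RPKM added, against -1.18. The median over all members was -1.91 with 0.01 RPKM added, against -1.82.

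Copies that share sequence with a gene were set beside copies that do not. Counting RNU2-2P itself, 40 copies share a run of 30 identical letters with a gene of their family, or with RNU2-2P for U2. These had a median log2 fold change of -1.85, and 20 of them were without overlap and lower (50.0%, against 15.6% of all tested transcripts). The other 67 had a median of -1.52, and 16 of them were without overlap and lower (23.9%). The sharing copies were also the more abundant, with a median mean level of 18.2 RPKM against 3.56 RPKM. Their median of estimated reads was 30.4 against 6.11. They include the copies identical to the U1 genes, whose single values cannot be read. The part of level in this difference was not tested. Copies outside any gene of their strand had a median of -2.03 (60 members) and copies inside one -1.28 (47 members), but this differed by family. It was -2.14 outside and -1.48 inside for U1, -1.61 and -1.67 for U2 and -2.62 and -1.94 for U5, while 8 of the 9 U4 copies lie inside a gene. The letters ACTTACCTG of U1, searched on the strand of the transcript, were in 20 of the 52 U1 members and in 0.50% of the 10419 transcripts under 200 nt.

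**Figure D5:**
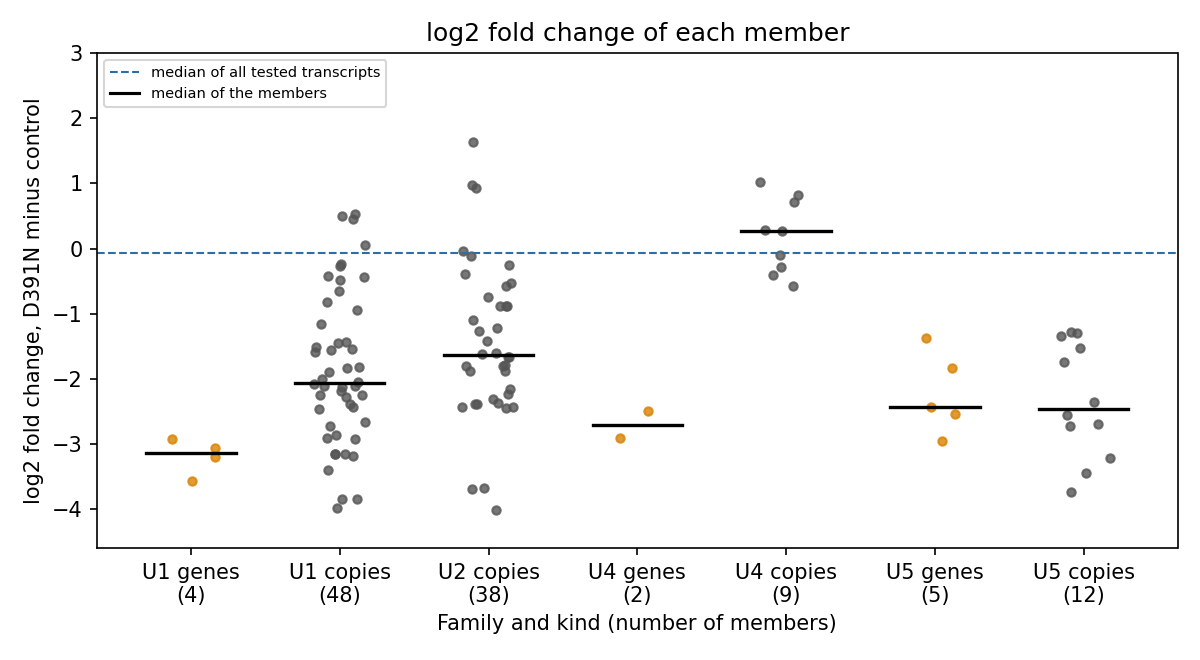
log2 fold change (D391N minus control, y axis) of each of the 118 members, by family and by gene or copy, with the median of each group as a black line and that of all tested transcripts dashed at -0.072. The highest point of U5 is -1.28, and the U4 copies lie around 0.

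A few copies had higher values with D391N: 12 of the 118 members had a log2 fold change above 0. Those named here were chosen after their values were seen. RNU2-63P, 75.8% identical to RNU2-2P over its length, had 81.3, 55.4 and 77.2 RPKM in D391N replicates 1, 2 and 3 and 49.1, 39.0 and 26.2 RPKM in controls. Its means were 71.3 ± 13.9 and 38.1 ± 11.5 RPKM (SD, n = 3), the groups did not overlap, and at least 83.5 estimated reads lay behind each value, yet the log2 fold change of 0.93 had a limma adjusted p of 0.225. RNU2-5P, the other copy with each D391N library above each control, had 4.13, 3.06 and 2.15 RPKM against 0.95, 0.72 and 1.05 RPKM (limma adjusted p = 0.130), with an inverse variance like that of about 1 read in each library. RNU1-85P, in an intron of IGBP1C, had 38.6, 20.6 and 63.1 RPKM against 28.4, 38.6 and 16.1 RPKM, and the groups overlap.

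The threshold of 1 RPKM cut the copies at a level of few reads. Just inside it were RNU2-62P and RNU4-16P, with means of 1.001 and 1.004 RPKM over the 6 libraries, and just outside it were RNU2-55P and RNU4-39P, with 0.998 and 0.997 RPKM. RNU2-62P had 0.16, 0.87 and 0.68 RPKM in D391N libraries and 1.29, 0.75 and 2.25 RPKM in controls, and RNU4-16P had 0.69, 0.79 and 2.23 RPKM against 1.56, 0.50 and 0.27 RPKM. Over all members, the median of the estimated reads was 15.7, 2.03 and 5.64 in D391N replicates 1, 2 and 3 and between 19.9 and 28.0 in controls. In D391N replicate 2, 74 members had under 3 reads, against 15 to 20 in the controls.

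The messenger RNAs of proteins that work with these RNAs had a median near that of all genes. At gene level, 0 of the 88 tested genes for snRNP proteins, snRNP assembly and import, snRNA transcription and snRNA 3′ end formation passed limma with Benjamini-Hochberg adjustment (0.14% of the 20714 tested genes did), and 16 had an unadjusted p under 0.05 (18.2%, against 22.7% of all tested genes). With D391N replicate 1 left out, 8 passed (9.09%, against 10.9%). Their median log2 fold change was 0.066, and -0.090 over all tested genes, with 35 of 88 below 0 (39.8%, against 57.3% of all tested genes). By list, the median was 0.35 for the U1 snRNP proteins (9 genes), 0.22 for those of U2 (12), 0.074 for the U4/U6.U5 tri-snRNP (17), 0.028 for the Sm ring (7), 0.073 for snRNP assembly and import (17), -0.051 for snRNA transcription (10) and 0.075 for 3′ end formation and trimming (16). PRPF8, the scaffold protein of U5, had 147, 165 and 109 RPKM in D391N replicates 1, 2 and 3 and 84.5, 83.6 and 97.8 RPKM in controls (log2 fold change 0.64, limma adjusted p = 0.140). PRMT5, of snRNP assembly, was lower, with 80.2, 59.5 and 61.0 RPKM against 121, 126 and 105 RPKM. Its log2 fold change was -0.82, with the smallest adjusted p of these lists (limma adjusted p = 0.092). SNRPD2, of the Sm ring, had 135, 49.8 and 93.4 RPKM against 212, 193 and 176 RPKM (log2 fold change -1.17, limma adjusted p = 0.140). PRPF8, PRMT5 and SNRPD2 did not overlap between the groups, and they were chosen after their values were seen.

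Among related snRNAs outside the 4 families, all 5 U6 genes tested, the partners of U4, had log2 fold changes below 0, with a median of -2.35. Of the 5, 2 passed (RNU6-8 with limma adjusted p = 0.028 and RNU6-7 with 0.047), where 0.14% of all tested genes did. The called RNU6-8 had 12.4, 5.85 and 11.1 RPKM in D391N replicates 1, 2 and 3 and 123, 122 and 80.0 RPKM in controls. RNU6-7 was close to it in D391N libraries, with 12.6, 6.10 and 11.6 RPKM, and RNU6-1, RNU6-2 and RNU6-9 were close to each other there. Whether these genes divide the same reads was not tested, so the 5 may not be separate results. RNU6-1 had 43.1, 8.75 and 4.81 RPKM against 126, 129 and 15.1 RPKM, and RNU6-1, RNU6-2 and RNU6-9 overlapped between the groups. RNU4ATAC, the minor spliceosome counterpart of U4, had 519, 95.8 and 381 RPKM in D391N libraries against 292, 186 and 210 RPKM, and RNU6ATAC had 298.5, 14.1 and 75.8 RPKM against 641, 479 and 619 RPKM. RNU6ATAC was below each control in every D391N library (limma adjusted p = 0.153), while RNU4ATAC overlapped (limma adjusted p = 0.841).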

How the data were processed

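RNA-seq of 3 D391N and 3 control libraries was analysed. Adapters were removed by the authors with cutadapt, and BitSeq estimated levels after alignment by Segemehl to Ensembl transcripts (hg38), dividing reads among similar transcripts. Each library's deposited values are a natural log of RPKM (posterior mean) and its posterior variance. Versions are not given in the sources used here. RPKM was obtained by taking the exponential, and log2(RPKM + 0.1) was analysed. At a mean of 1 RPKM or more, 54671 transcripts were compared with limma 3.58.1 (R 4.3.3, empirical Bayes with trend), Benjamini-Hochberg adjusted over all of them, with calls at an adjusted p under 0.05. Gene-level fits used sums of RPKM over the transcripts of a gene. Family sums, medians and motif counts had no test. Reads were approximated as the inverse of the posterior variance, which covers counting and assignment error only. Of 63190 gene identifiers, 88.2% matched a symbol, and all 118 members had a length. Sequences, positions and host genes came from GENCODE v44lift37 on GRCh37, joined by identifier. Identity was found by local alignment (Biopython 1.88), and tables and plots were made with pandas 2.3.3, numpy 2.4.6, Python 3.11.15 and matplotlib 3.10.9. The fits were tested on simulated data. The members and gene lists were chosen with earlier results of these data known. Genes named were those without a P symbol, the 3 most abundant copies of each family, any member called, the members next to the threshold and DIS3L2, besides those said to be chosen after their values were seen. Alternatives were other pseudocounts, filters and scalings, limma without trend, a replicate block and each library left out. No values of the authors' own comparison were used. The sequences of the U5 members and 1 host gene are not reported here. Members on the study's list of CLIPed targets are not compared here, because the list used is shorter than that of the study.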

Additional observations from a re-analysis of the deposited data

How the results depend on the processing

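The count of members past the threshold stayed at 0 under other pseudocounts, filters, scalings, limma without trend and the replicate block. When single libraries were left out it ranged from 0 to 49, the latter without D391N replicate 1 (41.5%, all lower, against 5.23% of all tested transcripts called lower). For the gene-level lists of proteins it ranged from 0 to 8 in the same way, and 8 was without D391N replicate 1 (9.09%, against 10.9% of all tested genes). The log2 ratio of the U5 sum ranged from -3.34 to -0.86 when single libraries were left out, with -3.34 without D391N replicate 1. That of U1 ranged from -2.74 to -1.78, that of U4 from -2.45 to -1.03 and that of U2 from -0.91 to 0.096, so the direction of U2 with RNU2-38P depends on single libraries. It was 0.22 with quantile normalization, and -1.57 without RNU2-38P. The median log2 fold change of U4 was -2.71 for members of at least 5 RPKM, since only the 2 genes remain there, and it ranged from -0.40 to 0.16 when single libraries were left out, with -0.40 without control replicate 3. The difference of the medians of genes and copies ranged from -1.58 to -0.25, with -0.25 without D391N replicate 2. With libraries scaled to the same summed RPKM, a choice made after seeing the data, the log2 ratios were -2.02, -0.055, -1.34 and -1.25 for U1, U2, U4 and U5. The cause of these shifts was not tested.

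The correlation between the deviations of libraries that share a replicate number was 0.087, 0.055 and -0.11. Libraries with unlike numbers were not compared in this way, so whether the numbers pair the libraries cannot be decided from these values. With the replicate block 0 members passed, as without it, and the block left 7 of all tested transcripts past the threshold where 33 passed without it. The values of the low copies rest on few estimated reads. Over all members the median of the estimated reads was lowest in D391N replicate 2, at 2.03. The depth of the libraries was not analysed here, and its part in this was not tested.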
